A study of Mus musculus with 30 samples.

Results

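Apela and Aplnr are a secreted peptide and its receptor, and their RNA was followed through the differentiation of mouse embryonic stem (ES) cells. All probe sets that the platform annotation assigns to these genes were taken, 2 for Apela and 2 for Aplnr, 4 of the 45101 probe sets on the array and 2 of the 18194 genes tested. The pair was chosen by its measured intensities, since earlier results of these data had shown this course in both genotypes, so its levels and differences are given as a description and carry no test. The arrays came from ES cells of 2 genotypes at 5 time points. In the null cells both copies of Jmj, the gene now named Jarid2, were disrupted (Jmj -/-). Its protein is a partner of PRC2, which methylates histones at silent developmental genes. The Fl/Fl cells carried floxed, intact Jmj alleles and are called wild type in the labels. Both genotypes were differentiated only by withdrawal of LIF, a cytokine of ES cell medium that blocks differentiation. Of the 30 arrays, 20 were null, with 3, 5, 5, 5 and 2 on days 0, 2, 4, 6 and 8 in that order, and 10 were Fl/Fl, with 2 on each day. The labels do not say from how many clones the cells of a genotype came.

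Apela (also called Elabela or Toddler) encodes a short secreted peptide that is made by undifferentiated pluripotent cells. Aplnr encodes the apelin receptor, a G-protein-coupled receptor found on early mesoderm and later on endothelium, and Apln encodes apelin, its other ligand. In zebrafish the Apela peptide acts through this receptor on the movement of mesendodermal cells during gastrulation.

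The genes lie apart in the genome of mouse assembly GRCm38.p6. Apela spans chr8:65028417-65037336, Aplnr chr2:85136360-85139923 and Apln chrX:48025146-48034853. The promoter of the ligand is shown because Apela was bright in the undifferentiated cells together with Pou5f1, a POU-domain factor of ES cells. It is given from RefSeq on the minus strand at chr8:65037287-65037586, from 250 bases before the gene start to 50 bases after it. The capitals mark matches to ATGCAAA, the core of the POU octamer, on either strand.
Apela: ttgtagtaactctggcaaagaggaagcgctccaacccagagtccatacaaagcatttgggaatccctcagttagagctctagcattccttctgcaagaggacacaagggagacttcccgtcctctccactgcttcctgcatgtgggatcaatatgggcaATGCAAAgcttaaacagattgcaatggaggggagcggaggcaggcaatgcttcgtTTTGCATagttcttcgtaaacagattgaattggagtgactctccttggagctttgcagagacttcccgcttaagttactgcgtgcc
The matches lie 91 bases before the start on the printed strand and 36 bases before it on the opposite strand. Of 32841 mouse promoters of the same length, 4.63% held at least 1 such match and 0.292% at least 2. Searched in the same way on both strands, the window also held 1 match to the SOX motif ACAAAG, found in 18.7% of promoters, and 1 to the forkhead motif GTAAACA, found in 3.65%. It held 0 matches to the TCF/LEF motif ATCAAAG (3.73% of promoters), the T-box motif TCACACC (3.98%), the SMAD motif GTCTAGAC (0.213%) and the GATA motif AGATAA (11.2%). None of these matches overlapped another on the same bases, and a match describes letters and not a bound site. The Apela window held 7 CpG dinucleotides, the median over all promoters, at 49% G and C.

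The null arrays stood apart from each other in ways the labels do not name. Eif2s3y, a Y-linked gene, lay between 594 and 981 on 11 null arrays, between 217 and 365 on 5, and between 11 and 16 on 4, against 130 to 234 on the Fl/Fl arrays. The 11 arrays with high Eif2s3y also had a lower 3'/5' ratio of the actin controls, a sign of RNA and labelling quality, at 1.29 to 1.43, against 1.54 to 2.02 on the other null arrays and 1.48 to 2.04 on the Fl/Fl arrays. Meg3, an imprinted RNA, lay between 21 and 88 on those 11 arrays, against 287 to 1902 on the other null arrays and 653 to 2579 on the Fl/Fl arrays. The sets were drawn from these values and do not come from the labels. Day 8 has no null array with high Eif2s3y. Jarid2 itself was not called lower on the arrays labelled null on any day. At day 0 it measured 4082, 2943 and 2872 in null, against 3335 and 3340 in Fl/Fl, 1 array above both Fl/Fl arrays and 2 below (log2 difference -0.036, limma adjusted p = 1). It was higher on the arrays labelled null at day 4 (log2 difference 0.91, limma adjusted p = 0.0149) and at day 6 (0.89, limma adjusted p = 0.0186), and both calls were lost without either Fl/Fl array of the day (adjusted p of 0.110 and 0.123 at day 4 and of 0.0687 and 0.277 at day 6). This goes against the label as far as the probe set can show, and whether the probe set lies in the disrupted part was not known here. Replicates are termed biological in the labels, which do not say whether the cultures were separate, so p-values measure only the spread between these arrays, which may be technical. The number of arrays limits the precision of every value.

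The brighter Apela probe set, 1436287_at, measured 852, 1427 and 1259 in null at day 0, against 748 and 793 in Fl/Fl. At day 2 it measured 2431, 2287, 2741, 2022 and 1962 in null, against 2680 and 2738 in Fl/Fl. Apela RNA was thus bright in undifferentiated cells of both genotypes and brighter after 2 days without LIF on every array. At day 4 the null arrays gave 2794, 3699, 5122, 4715 and 4834, against 1579 and 1707 on the Fl/Fl arrays. At day 6 they gave 1274, 851, 2838, 3426 and 3187, against 34 and 83 in Fl/Fl. All 5 null arrays lay above both Fl/Fl arrays on each of these days, and the gap was widest at day 6. At day 8 Apela measured 157 and 120 in null, against 119 and 79 in Fl/Fl, low on all 4 arrays.

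Over the 10 groups Apela had its highest mean in null at day 4, 4233 ± 967 (SD, n = 5), and the highest Fl/Fl mean was at day 2, 2709 ± 41.0 (SD, n = 2). The peak thus stood 1 sampled time point later in null. The other null means were 1179 ± 296 on day 0 (SD, n = 3), 2289 ± 317 on day 2 and 2315 ± 1172 on day 6 (SD, n = 5 each), with 138.5 ± 26.2 on day 8 (SD, n = 2). The other Fl/Fl means were 770.5 ± 31.8 on day 0, 1643 ± 90.5 on day 4, 58.5 ± 34.6 on day 6 and 99.0 ± 28.3 on day 8 (SD, n = 2 each). In falling order the groups ran null day 4, Fl/Fl day 2, null day 6, null day 2, Fl/Fl day 4, null day 0, Fl/Fl day 0, null day 8, Fl/Fl day 8 and Fl/Fl day 6. Neighbours in that order overlapped between Fl/Fl day 2 and null day 6, between null day 6 and null day 2, and between Fl/Fl day 8 and Fl/Fl day 6. The remaining neighbours did not overlap, though null day 8 and Fl/Fl day 8 came within 1 unit of intensity.

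**Figure D1:**
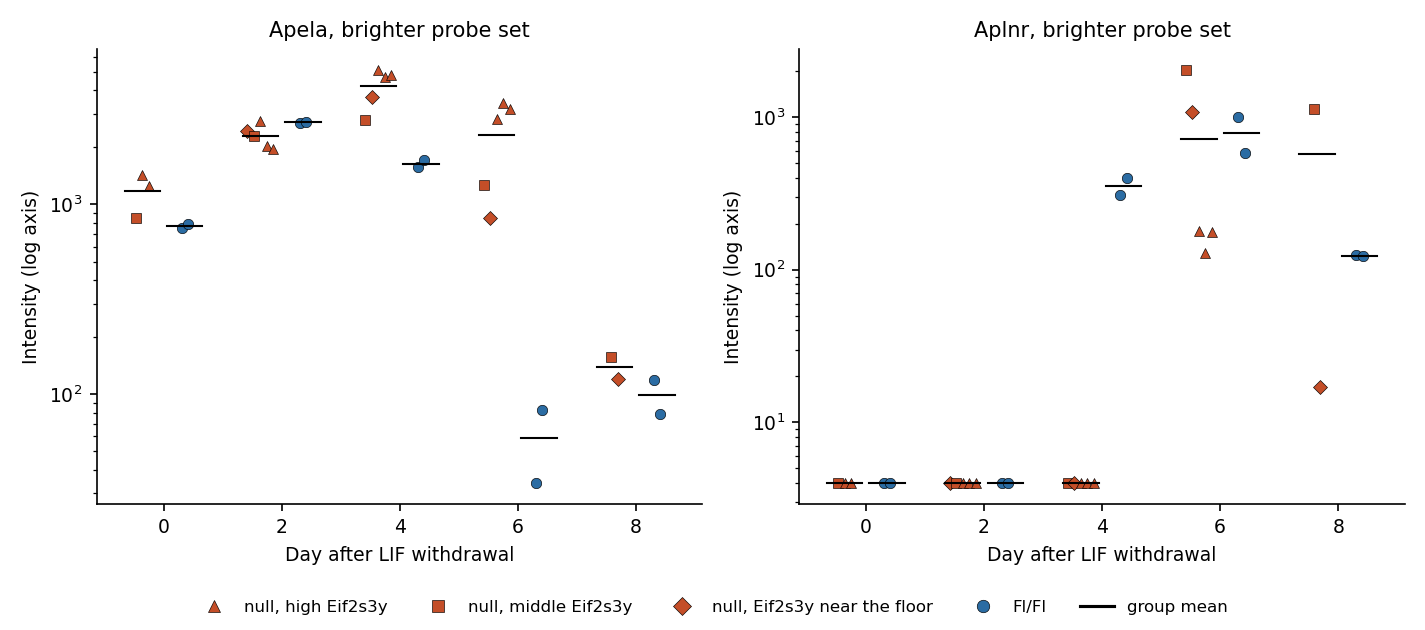
Intensity (log axis) of the brighter probe set of Apela and of Aplnr on each of the 30 arrays against the day after LIF withdrawal, with null arrays in orange, split by shape into the sets by Eif2s3y, and Fl/Fl arrays in blue. Horizontal lines are group means. Apela stayed at 851 or above on every null array at day 6, against 34 and 83 in Fl/Fl, and Aplnr stood at 4 on every null array at day 4, against 309 and 401 in Fl/Fl.

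The brighter Aplnr probe set, 1438651_a_at, measured 4 on every array of both genotypes at days 0 and 2. This was the lowest value of this probe set, reached on 17 of the 30 arrays, 13 null and 4 Fl/Fl. The deposited values carry no detection calls, so it is read as at the floor and not as absence of the RNA. At day 4 all 5 null arrays still gave 4, against 309 and 401 on the Fl/Fl arrays. The receptor RNA therefore stood above the floor in Fl/Fl at day 4 and on no null array before day 6.

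At day 6 Aplnr measured 2036, 1081, 178, 129 and 176 in null, against 1000 and 580 in Fl/Fl. The null arrays fell on both sides of the Fl/Fl pair, 2 above both and 3 below both. At day 8 it measured 1130 and 17 in null, against 124 and 123 in Fl/Fl, again with 1 null array above the pair and 1 below it. The null mean was 720 ± 837 at day 6 (SD, n = 5, median 178) and 573.5 ± 787 at day 8 (SD, n = 2). The Fl/Fl means were 355 ± 65.1 on day 4, 790 ± 297 on day 6 and 123.5 ± 0.71 on day 8 (SD, n = 2 each). Among the 5 groups above the floor, neighbours in the order of the means overlapped between Fl/Fl day 6 and null day 6, between null day 6 and null day 8, and between null day 8 and Fl/Fl day 4. Fl/Fl day 4 and Fl/Fl day 8 did not overlap.

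The genotype differences were fitted on log2(intensity + 4) with limma, as null minus Fl/Fl, and are given with the standard error (SE) of the fit. For days 0, 2, 4, 6 and 8 the Apela differences were 0.58 (SE 0.46), -0.25 (SE 0.42), 1.33 (SE 0.42), 5.14 (SE 0.42) and 0.48 (SE 0.50). Apela was thus 2.51-fold higher in null at day 4 and 35.2-fold higher at day 6 on that scale. The Aplnr differences on the same days were 0 (SE 1.09), 0 (SE 1.00), -5.48 (SE 1.00), -0.95 (SE 1.00) and 0.28 (SE 1.20). The day 4 difference corresponds to 44.5-fold lower in null, but the null arrays sat at the floor, so its size depends on the constant added before the logarithm and is no bound. It was -6.14 with 1 added and -4.20 with 16 added. At days 6 and 8 the Aplnr differences were within 1 SE of 0.

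Over all genes limma called 1.18%, 0.621%, 11.6%, 9.93% and 2.51% different between the genotypes on days 0, 2, 4, 6 and 8, at a Benjamini-Hochberg adjusted p under 0.05. Apela did not overlap between the genotypes at days 0, 4, 6 and 8, with 3 of 3, 5 of 5, 5 of 5 and 2 of 2 null arrays above both Fl/Fl arrays, and at day 2 it was below both on 4 of 5. Aplnr did not overlap at day 4, with 5 of 5 null arrays below both. Those shares count limma calls, and the share of all genes without overlap is not given here. With 2 arrays against 2, as at day 8, a lack of overlap says little. These contrasts were also used to choose the pair, so nothing is read from its counts against those shares. In cultures measured as a whole, fewer cells of a type and less RNA per cell cannot be told apart.

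**Figure D2:**
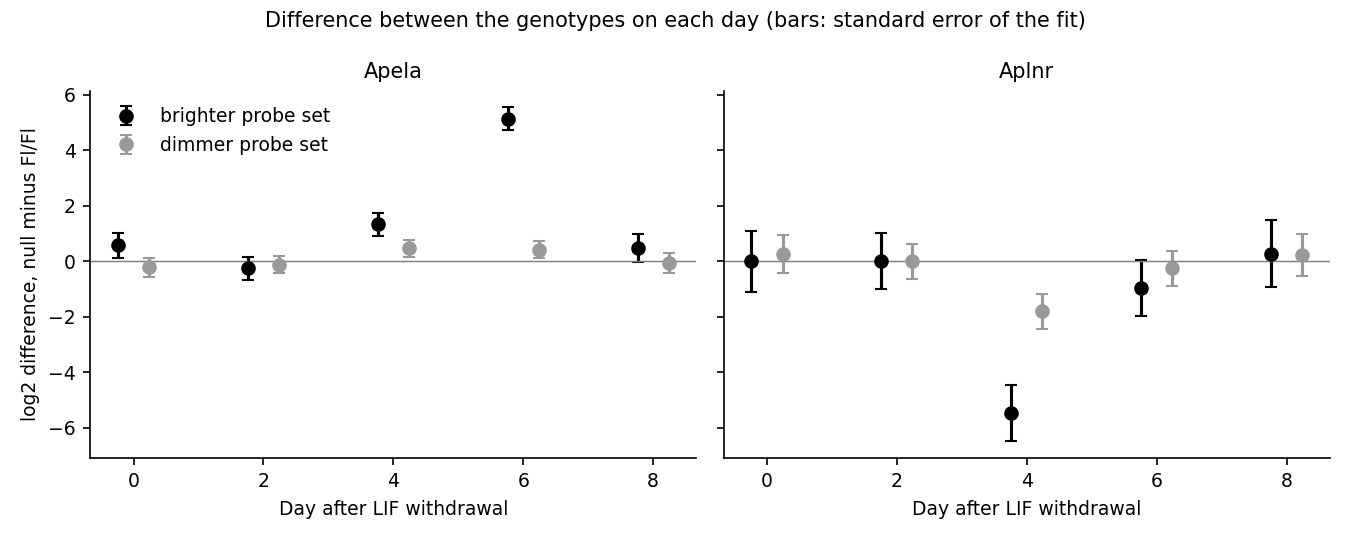
Difference between the genotypes on the log2(intensity + 4) scale, null minus Fl/Fl, on each day for the brighter (black) and dimmer (grey) probe set of Apela and Aplnr, with bars for the standard error of the fit. The brighter Apela probe set reaches 5.14 at day 6 and the brighter Aplnr probe set -5.48 at day 4.

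The hand-over from ligand to receptor is clearest within a genotype, with each gene set against its own highest group mean, because levels of different probe sets cannot be compared. In null, Apela stood at 27.9%, 54.1%, 100%, 54.7% and 3.27% of its peak at days 0, 2, 4, 6 and 8, and Aplnr at 0.556% on days 0, 2 and 4, 100% at day 6 and 79.7% at day 8. The null Aplnr peak is a mean of 720 with a median of 178, raised by arrays at 2036 and 1081. On the 3 high Eif2s3y arrays of day 6 Aplnr was 129 to 178 and Apela still 2838 to 3426. The null Aplnr mean of day 8 averages 1130 and 17. In Fl/Fl, Apela stood at 28.4%, 100%, 60.6%, 2.16% and 3.65%, and Aplnr at 0.506%, 0.506%, 44.9%, 100% and 15.6%. In both genotypes the receptor was at the floor while the ligand climbed to its peak. The receptor left the floor at the first time point after the peak of the ligand, day 6 in null and day 4 in Fl/Fl.

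The steps between days ran the same way. Apela changed in null by 0.98 from day 0 to 2, 0.86 from day 2 to 4, -1.03 from day 4 to 6 and -3.84 from day 6 to 8 on the log2 scale. In Fl/Fl the same steps were 1.81, -0.72, -4.84 and 0.81. The steepest drop of the ligand thus came between days 6 and 8 in null, where it was 14.3-fold, and between days 4 and 6 in Fl/Fl, where it was 28.6-fold. Day 8 has no high Eif2s3y null array, so the last null step compares unlike sets of arrays. On the other null arrays Apela fell from 1274 and 851 at day 6 to 157 and 120 at day 8. Aplnr changed in null by 5.63 between days 4 and 6 and by -1.36 between days 6 and 8. Outside the high Eif2s3y set the null arrays gave 2036 and 1081 for Aplnr at day 6 and 1130 and 17 at day 8. In Fl/Fl it changed by 5.48 between days 2 and 4, 1.10 between days 4 and 6 and -2.59 between days 6 and 8.

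Read with a lag of 2 days, null day 6 minus Fl/Fl day 4 was 0.30 (SE 0.42) for Apela and 0.15 (SE 1.00) for Aplnr. These means average over arrays on both sides, since no null array of day 6 lay within the Fl/Fl range of day 4 in either gene. For Aplnr 3 lay below it and 2 above, and for Apela 2 lay below it and 3 above. Null day 4 minus Fl/Fl day 2 was 0.61 (SE 0.42) for Apela and 0 for Aplnr, which was at the floor in both. Null day 8 minus Fl/Fl day 6 was 1.30 (SE 0.50) for Apela and -2.31 (SE 1.20) for Aplnr. These differences do not show that the courses are alike, because the arrays split, only 5 time points were sampled and the pair was chosen on these values.

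**Figure D3:**
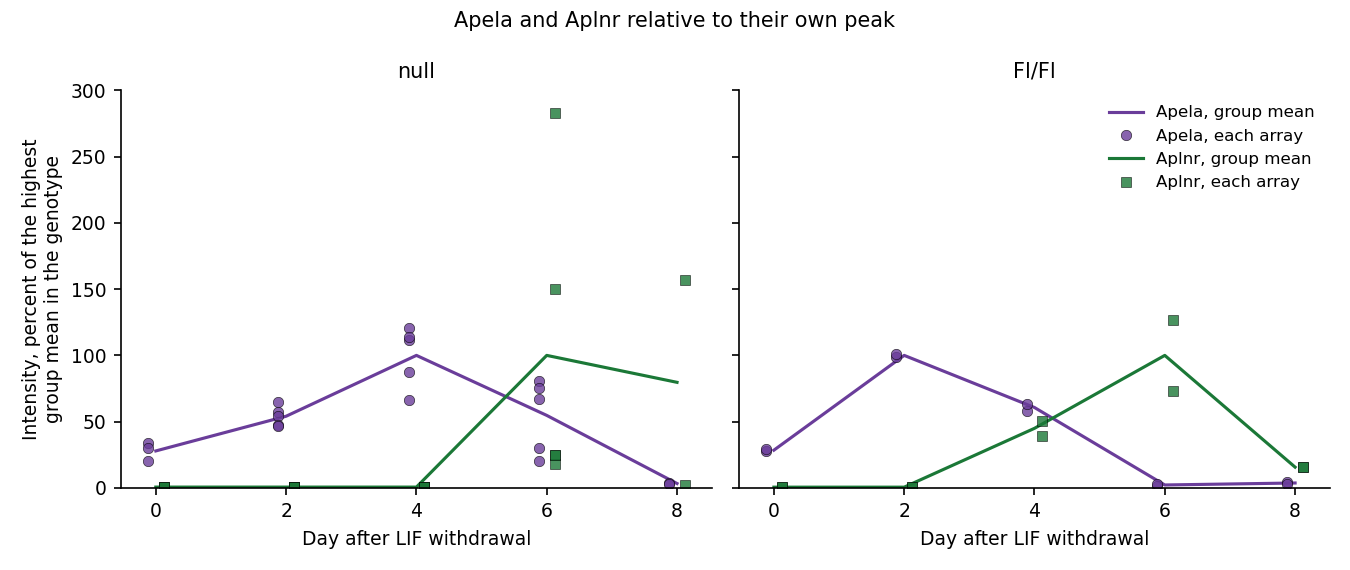
Apela (purple) and Aplnr (green) as a percent of the highest group mean of the same gene in the same genotype, by day after LIF withdrawal, with null on the left and Fl/Fl on the right. Lines join group means and points are single arrays. The null Aplnr mean covers arrays from 129 to 2036 at day 6 and from 17 to 1130 at day 8. The lines cross between days 4 and 6 in null, where Aplnr reaches 100% at day 6, and just after day 4 in Fl/Fl, where Apela stands at 60.6% and Aplnr at 44.9%.

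The null arrays of day 6 differed by Eif2s3y set in both genes. The 3 arrays with high Eif2s3y had Apela between 2838 and 3426 and Aplnr between 129 and 178. The other 2 had Apela at 1274 and 851 and Aplnr at 2036 and 1081. The sets did not overlap in either gene, and the set with less ligand had more receptor. Within the pair of other arrays, the one with less Apela, 851, also had less Aplnr, 1081. At day 4 the high set also had the highest Apela, 4715 to 5122, against 2794 and 3699 on the other null arrays, and Aplnr was 4 in all of them. At day 2 the sets overlapped in Apela, with 1962 to 2741 against 2287 and 2431.

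With only the high Eif2s3y null arrays in the fit, the Apela difference was 1.57 at day 4 and 5.77 (SE 0.27) at day 6, and the Aplnr difference was -5.48 at day 4 and -2.23 (SE 0.18) at day 6. With only the other null arrays, it was 0.97 and 4.18 (SE 0.36) for Apela and -5.48 and 0.96 (SE 1.35) for Aplnr. Apela at days 4 and 6 and Aplnr at day 4 kept their direction in either set, while the direction of Aplnr at day 6 depended on which arrays were used. At day 8 it depended on 1 array, with a difference of -2.60 without the first null replicate and 3.15 without the second. The part of whatever separates the sets was not tested.

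**Figure D4:**
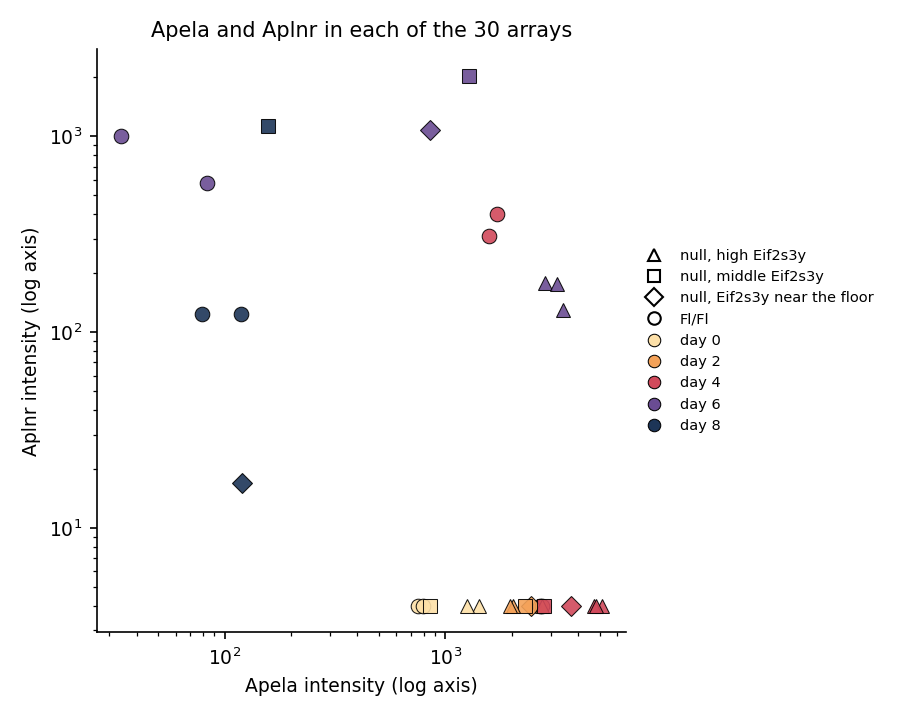
Aplnr against Apela intensity (both log axes) of the brighter probe sets on each of the 30 arrays, coloured by day, with null arrays as triangles, squares and diamonds by Eif2s3y set and Fl/Fl arrays as circles. Arrays run along the bottom while Aplnr is at 4. Only the Fl/Fl arrays of day 4 and the null arrays of day 6 have Apela at 851 or above with Aplnr at 129 or above. Null replicate 1 of day 8 had Aplnr at 1130 with Apela at 157.

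The second probe sets were dim. The second Apela probe set, 1442571_at, lay between 16 and 64 on all arrays. Its differences were -0.22, -0.12, 0.47, 0.42 and -0.069 at days 0, 2, 4, 6 and 8. It thus gave the direction of the brighter one at days 2, 4 and 6, with a much smaller size, and the opposite direction at days 0 and 8. The second Aplnr probe set, 1423037_at, lay between 9 and 211. It gave 10, 10, 9, 10 and 9 in null at day 4, against 24 and 76 in Fl/Fl, and 211, 108, 28, 35 and 41 in null at day 6, against 88 and 65 in Fl/Fl. Its day 4 difference of -1.80 and its split at day 6 followed the brighter probe set.

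Apln, which encodes the other ligand of the receptor, was tested across all genes. At day 4 it measured 12, 16, 16, 12 and 13 in null, against 326 and 154 in Fl/Fl. At day 6 it measured 221, 57, 45, 45 and 51 in null, against 26 and 67 in Fl/Fl. Apln was near its lowest level on every null array until day 6 and on the Fl/Fl arrays until day 4, the same days on which Aplnr left the floor. At day 4 Apln was 12.9-fold lower in null, a log2 difference of -3.69 (SE 0.47, limma adjusted p = 2.27e-05, 5 of 5 null arrays below both Fl/Fl arrays). The call held with each array left out in turn, with adjusted p between 4.12e-05 and 0.00334, and with the high Eif2s3y arrays alone (-3.70) or the other null arrays alone (-3.67).

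Within null, Apln rose by 2.25 between days 0 and 6 (limma adjusted p = 0.000236), and within Fl/Fl it rose by 3.75 between days 0 and 4 (limma adjusted p = 7.17e-05). The change between days 0 and 4 was smaller in null than in Fl/Fl by a log2 difference of -3.51 (limma adjusted p = 0.0111). That call was lost without the first Fl/Fl replicate of day 4, with an adjusted p of 0.0813, and with only the null arrays below the high Eif2s3y set. At days 0, 2, 6 and 8 the Apln differences were -0.18, -0.069, 0.62 and 0.97 and did not pass the test, with limma adjusted p of 1, 1, 0.588 and 0.484.

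**Figure D5:**
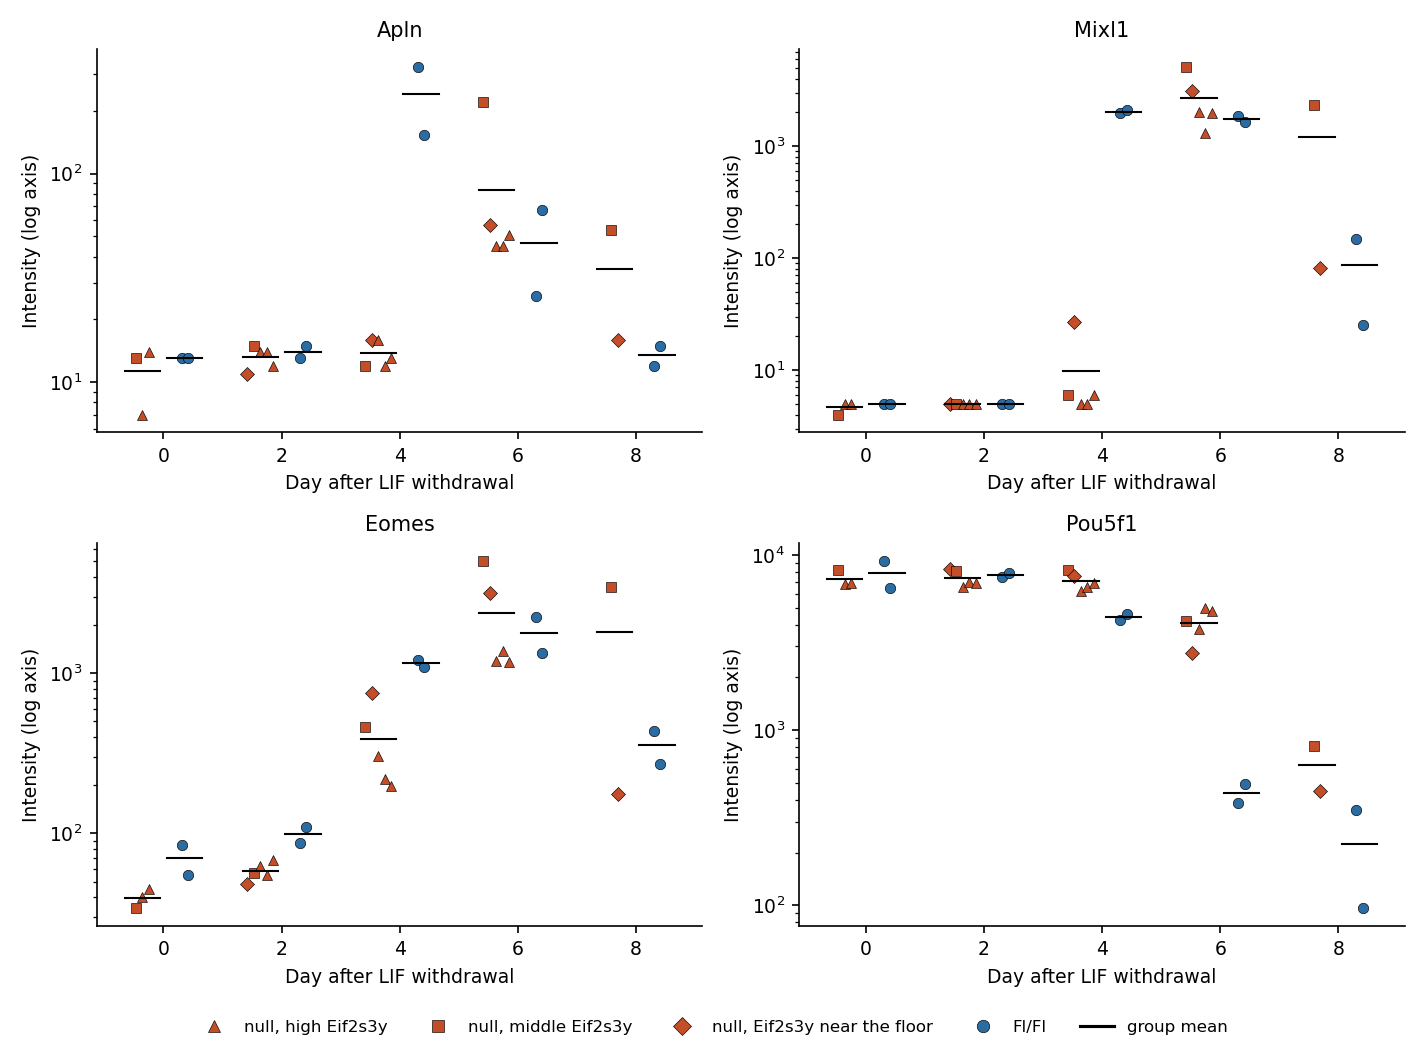
Intensity (log axis) of Apln, Mixl1, Eomes and Pou5f1 on each array against the day after LIF withdrawal, with null arrays in orange, split by shape into the sets by Eif2s3y, Fl/Fl arrays in blue and lines for group means. At day 4 the null arrays of Apln lie between 12 and 16 and those of Mixl1 between 5 and 27, against at least 154 and 1964 in Fl/Fl.

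The list of genes around the receptor held 26 genes: Apln, peptidases that process or break down its ligands, related receptors, G proteins, receptor kinases, arrestins and downstream factors. Of these, 23 were measured. The other 3 were not analysed here. At day 0 limma called 0 of 23 (3 lower at an unadjusted p under 0.05), where 0.247% of all genes were called higher in null and 0.929% lower. At day 2 it called 1, lower, where 0.104% of all genes were called higher and 0.517% lower. At day 4 it called 1 higher and 2 lower, against 4.18% and 7.43% of all genes. At day 6 it called 1 higher and 1 lower, against 3.47% and 6.46%, and at day 8 it called 0 (5 lower at an unadjusted p under 0.05), against 0.709% and 1.8%. The median difference of the list was -0.066, -0.057, -0.17, 0 and 0 on the 5 days, beside medians over all genes between -0.0054 and 0. With all null arrays most genes of the pathway thus did not pass the test between the genotypes, and apart from Apln each call was lost when 1 array or another was left out. With only the high Eif2s3y null arrays 3 of 23 were higher and 9 lower at day 4, and 2 higher and 4 lower at day 6. With only the other null arrays 1 was lower at day 4, Apln, and 0 were called at day 6. The shares above belong to the fit of all arrays. Over all genes the high set also called more than that fit on both days, and the other null arrays fewer. Those totals are given in the last section, so nothing is read from the subset counts.

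The peptidases were measured well above the floor. Furin, a proprotein convertase that cleaves precursors of secreted peptides, measured 209, 451, 233, 213 and 213 in null at day 6, against 671 and 730 in Fl/Fl. It was 2.76-fold lower in null, a log2 difference of -1.46 (SE 0.40, limma adjusted p = 0.0218), and the call was lost without either Fl/Fl array of that day (adjusted p up to 0.208). Mme, which encodes neprilysin, a membrane peptidase that cleaves apelin, measured 57, 36, 88, 46 and 33 in null at day 2, against 264 and 202 in Fl/Fl. It was 4.44-fold lower, a log2 difference of -2.15 (SE 0.44, limma adjusted p = 0.0247), and leaving out single arrays raised the adjusted p to as much as 0.267. Furin was lower in null on every array of day 6 and Mme on every array of day 2, but neither call held with each array left out.

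Among the signalling genes, Gnai3, a subunit of an inhibitory G protein, measured 2734, 2585, 2245, 2222 and 2131 in null at day 4, against 2981 and 3184 in Fl/Fl. It was 1.30-fold lower (log2 difference -0.38, SE 0.08, limma adjusted p = 0.00494, and 0.0968 without the second Fl/Fl replicate). Grk6, a kinase of G-protein-coupled receptors, measured 1272, 1128, 2096, 2056 and 2093 in null at day 6, against 946 and 1060 in Fl/Fl. It was 1.66-fold higher (log2 difference 0.73, SE 0.21, limma adjusted p = 0.0268, and up to 0.237 with 1 array left out), and its highest values were those of the high Eif2s3y arrays. The Gnai3 call was also lost with arrays scaled to their 75th percentile, where the difference was -0.24. Agtr1a, an angiotensin receptor, was called higher at day 4 by 0.069 at the floor of the array, and that call was lost without the second Fl/Fl array. Hnrnpl, an RNA-binding protein reported to bind Apela RNA in mouse ES cells, was not called between the genotypes on any day.

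Within each genotype more of the pathway changed as the receptor appeared. Between days 0 and 6 in null, 9 of 23 rose and 3 fell, where 12.2% of all genes rose and 18% fell (30.2% in all), and the list's median was 0.22 beside -0.028 for all genes. Between days 0 and 4 in Fl/Fl, 5 rose and 4 fell, where 8.01% of all genes rose and 10.5% fell (18.5% in all), and the median was 0.38 beside -0.050. Of the 4 that fell in Fl/Fl, Agtr1a changed by -0.069 and Agtr2, another angiotensin receptor, by -0.15, both at the floor, and Agtr2 was also among the 3 in null. Mef2a, a transcription factor, rose by 2.27 in null and by 1.66 in Fl/Fl. Mme rose by 2.36 in null and by 2.33 in Fl/Fl. Klf2, a Krüppel-like factor of ES cells that is also downstream of flow signalling in endothelium, fell by 6.69 in null and fell by 5.57 in Fl/Fl. With each array left out in turn, 10 of the 12 calls in null held and 4 of the 9 in Fl/Fl. In the test of the difference between the day 0 to day 4 changes, 1 of 23 was called, Apln, where 1.42% of all genes were called, 0.55% higher and 0.874% lower.

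The stage of the cells was read from 2 further lists. Of 24 measured genes of the primitive streak, mesoderm and endoderm, 0 were higher and 9 lower in null at day 4 by limma, where 4.18% of all genes were higher and 7.43% lower, with a median of -0.68 beside 0 for all genes. They were Mixl1, Gsc, Lhx1, Evx1, Wnt3, Fgf8, Snai1, Gata6 and Lefty2, and the calls of Mixl1, Lhx1, Evx1 and Fgf8 held with each array left out in turn. Mixl1, a homeobox factor of the streak, measured 6, 27, 5, 5 and 6 in null at day 4, against 1964 and 2110 in Fl/Fl, a log2 difference of -7.41 (SE 0.80, limma adjusted p = 3.05e-06). With only the high Eif2s3y null arrays 14 genes were lower, and with only the other null arrays 4 were. Over all genes the high set also called more than the main fit at days 4 and 6, and the other null arrays fewer. Those totals stand in the last section without a split by direction, so nothing is read from the subset counts of this list. At days 0 and 2 limma called 0 of 24 (0 and 2 at an unadjusted p under 0.05). Wnt3 was also lost under quantile scaling. At day 6 limma called 2 higher, Nodal and Lefty1, and 0 lower, where 3.47% of all genes were higher and 6.46% lower, with a median of 0.43, and neither call held with each array left out. With only the high Eif2s3y null arrays, 5 were higher at day 6 (Fgf8, Mesp1, Nodal, Lefty1 and Lefty2) and 5 lower (Gsc, Kdr, Hand1, Cxcr4 and Gata6). With only the other null arrays, 2 were higher, Foxa2 and Sox17, and 0 lower. Nodal and Lefty1 were higher again at day 8.

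Several of these genes split the null arrays of day 6 as Aplnr did. Mixl1 measured 5127, 3095, 2001, 1312 and 1970 in null at day 6, against 1843 and 1658 in Fl/Fl. Eomes, a T-box factor of mesendoderm, measured 5060, 3168, 1198, 1374 and 1180, against 2244 and 1345 in Fl/Fl. Lhx1, a LIM homeobox factor, measured 4360, 2489, 905, 525 and 617 in null. In each of them the first 2 null replicates, which lie outside the high Eif2s3y set, were the highest, as they were for Aplnr. None of the 3 passed the test between the genotypes at day 6 (limma adjusted p of 1, 1 and 0.709).

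Of 15 genes of undifferentiated ES cells, 5 were higher and 0 lower in null at day 4 by limma, where 4.18% of all genes were higher and 7.43% lower, with a median of 0.68. They were Sox2, Fgf4, Dnmt3b, Utf1 and Gdf3, and all but Gdf3 held with each array left out. With only the high Eif2s3y null arrays 8 were higher and 0 lower, and with only the other null arrays 4 were higher and 1 lower, Fbxo15. At day 6, when Apela differed most, 7 were higher and 1 lower, where 3.47% of all genes were higher and 6.46% lower, with a median of 0.70. The day 6 counts were 7 higher and 1 lower with the high Eif2s3y arrays alone, and 3 higher and 2 lower with the other null arrays alone. As for the other lists, the high set called more of all genes than the main fit on both days, and the other null arrays fewer. Nothing is read from these subset counts either. Pou5f1 measured 4197, 2737, 3756, 4981 and 4795 in null at day 6, against 384 and 494 in Fl/Fl, a 9.12-fold higher level (log2 difference 3.19, SE 0.32, limma adjusted p = 8.84e-07). Nanog was higher by 2.78 and Sox2 by 2.34, and Klf4 was lower by a log2 difference of -3.17. At days 0 and 2 limma called 0 of 15 (0 and 3 at an unadjusted p under 0.05), and at day 8 it called 3 higher and 2 lower, where 0.709% of all genes were higher and 1.8% lower. Of those 5 day 8 calls, 0 held with each array left out. Within each genotype most of the list had fallen by the day on which Aplnr appeared, 14 of 15 between days 0 and 6 in null, where 18% of all genes fell, and 13 of 15 between days 0 and 4 in Fl/Fl, where 10.5% fell.

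Markers of other cells were measured beside the receptor, since Aplnr is also made by endothelium. Of 7 endothelial markers, Cdh5, Tie1, Emcn and Esam never exceeded 20 on any array, and the summed intensity of the list was 58 to 89 in null at day 6, against 60 to 61 in Fl/Fl. Pecam1, Etv2 and Tek reached 231, 78 and 31 over all arrays. Of 5 cardiac markers, Nkx2-5 and Isl1 never exceeded 20, and the sum was 40 to 181 in null at day 6, against 42 to 46 in Fl/Fl. Myl7, Myh6 and Tnnt2 reached 147, 55 and 23 over all arrays. The cardiac sum of 181 and the endothelial sum of 89 were both on null replicate 1, which also had the highest Aplnr, 2036. Limma called 0 endothelial and 0 cardiac markers at days 4 and 6 (0 at an unadjusted p under 0.05 in each). With only the high Eif2s3y null arrays, a fit that called more of all genes, 1 was called on those days, Tnnt2, lower at day 6. At day 8 the fit of all arrays called 0 endothelial markers and 1 cardiac marker, where 0.709% of all genes were higher. This was Nkx2-5, higher in null by 0.82 on the log2 scale, and it lay between 5 and 14 on all arrays, near the floor. The visceral endoderm markers Afp, Apoa1 and Amn did not exceed 20 either, and 0 of the 5 in that list were called at days 4 and 6 (1 and 0 at an unadjusted p under 0.05). Rhox5, a further gene of that list that ES cells also express, ranged from 42 to 5726 over the arrays. With only the high Eif2s3y null arrays, Amn and Rhox5 were called higher at day 4, Amn at the floor with 5 against 4 in Fl/Fl and Rhox5 with 513 to 583 against 233 to 285, and Rhox5 was called lower at day 6 (log2 difference -1.03, limma adjusted p = 0.0435). The sum of the list at day 4 was 545 to 616 on those arrays and 550 and 121 on the other null arrays, against 263 and 314 in Fl/Fl. Of 3 measured trophoblast markers, Tfap2c was lower in null at days 2 and 4 and Cdx2 at days 4 and 6, while Elf5 was 5 on every array. Leaving out 1 array raised the adjusted p of Tfap2c to as much as 0.217 at day 2 and 0.0582 at day 4, and that of Cdx2 to 0.217 at day 6. Tfap2c at day 2 was also lost under both scalings. The 7 fibroblast and feeder markers moved with the genotype. Their sum was 69 to 177 in null at day 4, against 313 to 330 in Fl/Fl. It was 97 to 132 in null at day 6, against 2031 to 2504 in Fl/Fl, and 384 to 1125 at day 8, against 11066 to 14667. At day 6 limma called 4 lower, Col1a1, Col1a2, Col3a1 and Postn, where 6.46% of all genes were lower. At day 8 it called 5 lower, the same genes and Lum, where 1.8% were lower. Col1a1 was also called lower at days 0 and 4, and the day 0 call was lost without null replicate 2. The part of these markers in the Apela and Aplnr differences was not tested.

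The genes closest to each member in their course were ranked by Pearson's r of the 10 group means on the log2 scale, among 7727 named genes with a group mean of at least 100. This is a description, since the 10 points share 30 arrays and the members were chosen for their course. Closest to Apela were Sf3b6, a component of the spliceosome (r = 0.974), Zfp207, a zinc finger protein (0.955), Paip2, a regulator of translation (0.951), Pim2, a serine/threonine kinase (0.951), Ap1s3, a clathrin adaptor subunit (0.947), and Dgcr6 (0.946). Over the 30 single arrays these r values were between 0.531 and 0.923, with Pim2 the highest. Pim2 averaged 5018 in null at day 4, against 970 in Fl/Fl. At day 6 it averaged 1880 in null, against 145 in Fl/Fl.

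Closest to Aplnr were Cyp26a1, which breaks down retinoic acid (r = 0.998), Rspo3, a secreted enhancer of Wnt signalling (0.990), Pdgfb, a growth factor subunit (0.989), Pcdh7, a protocadherin (0.986), Cln3, a lysosomal membrane protein (0.984), and Snai1, a repressor of epithelial genes (0.979). Over the 30 arrays r was between 0.757 and 0.990. Cyp26a1 measured 4, 5, 5, 4 and 5 in null at day 4, against 490 and 703 in Fl/Fl. At day 6 it measured 1999, 1474, 587, 435 and 510 in null, against 1190 and 1105 in Fl/Fl, with the same 2 null arrays highest as for Aplnr. At day 8 it measured 1413 and 22 in null, against 181 and 108 in Fl/Fl, the null pair again lying on both sides of the Fl/Fl pair. The 6 genes closest to Apela and the 6 closest to Aplnr shared 0 genes. Nothing is read from this, since the members were chosen for courses that differ in time.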

How the data were processed

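RNA of 30 ES cell samples was hybridised to Affymetrix mouse arrays, 1 array per sample, after biotin labelling of cRNA from total RNA, per the labels' protocols. The deposited table holds 1 intensity per probe set and array, on a linear scale and as whole numbers. The authors' background correction, probe summary and scaling were not given in the sources used here. Array means lay between 331.8 and 363.6, and no further scaling was applied.

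Of the 45101 probe sets, 34958 name 1 gene in the platform annotation, 932 name several and 9211 none, and 34754 matched the gene table of GRCm38.p6, with 0 symbols changed. The probe set with the highest mean stood for a gene, which left 18194 genes. Values were taken as log2(intensity + 4), so fold changes understate the change of dim genes. In R 4.3.3, limma 3.58.1 fitted 10 group means over all 30 arrays (20 residual degrees of freedom). The two-sided moderated test was adjusted by Benjamini-Hochberg over all genes at a threshold of 0.05, and the fit was tested on simulated data. Samples were grouped by genotype and day from their labels. Apela and Aplnr and the gene lists were chosen with earlier results of these data known. Named genes were the members, Jarid2, Eif2s3y, Apln, fixed stage genes, the called members of each list (otherwise up to 4 with the smallest adjusted p) and the 6 genes nearest each member. The actin control, Meg3 and the marker genes were named after their values were seen. Alternatives were another constant (1 or 16), quantile and 75th percentile scaling, removal of the 40% dimmest genes, every probe set, the other probe set, only the groups compared, a replicate block, part of the null arrays by Eif2s3y, and each array left out. Promoters are from RefSeq, and their motifs were chosen after the results were known. No sample was left out of the main fit.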

Additional observations from a re-analysis of the deposited data

Results flagged for a closer look

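Apela moved in opposite directions in the genotypes over 2 steps, a difference that was not tested. Between days 2 and 4 it changed by 0.8627 on the log2 scale in null, up on 5 of 5 arrays against the mean of the earlier day, and by -0.7211 in Fl/Fl, down on 2 of 2. Between days 6 and 8 it changed by -3.8407 in null, down on 2 of 2 arrays, and by 0.8134 in Fl/Fl, up on 2 of 2, at low intensities in Fl/Fl. The null mean of day 6 includes high Eif2s3y arrays and that of day 8 does not, so the step compares unlike sets.

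The change between days 0 and 4 differed between the genotypes, null minus Fl/Fl, by limma for 7 genes of the pathway, streak and ES cell lists. These were 1 of 23 pathway genes, 3 of 24 streak genes and 3 of 15 ES cell genes. Of all genes 1.42% were called, 0.55% higher and 0.874% lower. The genes nearest to Aplnr were picked on their course and are not counted here. The log2 differences were -3.51 for Apln, -7.35 for Mixl1, -3.91 for Evx1, -3.93 for Fgf8, 2.01 for Sox2, 3.82 for Fgf4 and 2.81 for Utf1. The calls of Mixl1 and Evx1 held with each array left out in turn, and those of the other 5 did not.

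The highest or lowest null array lay apart from the rest, relative to the range of its group, in 12 of 120 gene and group combinations examined, where chance gives about 1 in 20 for values that are not rounded. For Agtr2, Grk5, Pcdh7 and Snai1 the gap is 1 to 3 whole units near the floor, where that rate need not hold. At day 6 Apln was 221 on replicate 1, against 57 on the nearest array, Arrb1 was 203 there, against 137, Furin was 451 on replicate 2, against 233, and Grk5 was 11 there, against 10. At day 4 Furin was 182 on replicate 2, against 129, Mixl1 was 27 there, against 6, Pcdh7 was 11 there, against 8, Gna13 was 406 on replicate 3, against 464, and Agtr2 was 10 on replicate 4, against 9. At day 2 Cln3 was 82 on replicate 2, against 67, Snai1 was 11 there, against 9, and Pcdh7 was 7 on replicate 4, against 8. On days 2, 4 and 6 replicates 1 and 2 lie outside the high Eif2s3y set.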

How the results depend on the processing

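Of 201 recomputed values outside the omission of single arrays, 154 stayed near the main value, and the others follow. For a count, near meant a total within a fixed ratio of the main one, whatever its split into higher and lower. For Apela and Aplnr it meant a difference within the residual SD of the gene. Aplnr at days 0 and 2 is included, though the floor holds the brighter probe set at 0. With 16 added before the logarithm the Aplnr difference at day 4 was -4.20. The other Apela probe set gave -0.22 at day 0, opposite to the brighter one, and -0.069 at day 8, also opposite, and 0.47 and 0.42 at days 4 and 6, and the other Aplnr probe set gave -1.80 at day 4. With only high Eif2s3y null arrays Apela at day 6 was 5.77 and Aplnr -2.23, the genes called were 2601, 1902, 4457 and 4197 at days 0, 2, 4 and 6, 5384 between days 0 and 4 in Fl/Fl and 1633 for the difference of changes, and the pathway calls at those days were 5, 2, 12 and 6. With only the other null arrays Apela at day 6 was 4.18 and Aplnr 0.96, the genes called were 364, 53, 925, 308 and 270 at days 0 to 8 and 405 for the difference of changes, and the pathway calls at days 2, 4 and 6 were 0, 1 and 0. The cause was not tested.

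Without the 40% dimmest genes, which leaves fewer genes to test, 113 genes were called at day 0 and 299 at day 8, and 5 and 4 of the pathway at days 4 and 6. With only the groups compared, which leaves fewer arrays, 123 genes were called at day 0 and 1766 between days 0 and 4 in Fl/Fl, and 0, 1 and 1 of the pathway at days 2, 6 and 8. Over every probe set, which is a larger table, 2810 were called at day 6, 872 at day 8 and 8560 between days 0 and 6 in null. Quantile scaling called 1 of the pathway at day 0. Scaling to the 75th percentile called 91 genes at day 0. It moved the median of all genes to -0.14 between days 0 and 6 in null and between days 0 and 4 in Fl/Fl, and split the calls at days 0, 4, 6 and 8 into 40, 1288, 1139 and 243 higher and 51, 1089, 905 and 230 lower, where the main fit gave 45, 760, 631 and 129 higher and 169, 1352, 1175 and 328 lower. Between days 0 and 6 in null it gave 1967 higher and 5992 lower, against 2216 and 3275. Quantile scaling gave 914 higher and 1104 lower at day 6 and 211 and 283 at day 8. No named call turned its direction under either scaling. Quantile scaling ended the calls of Tfap2c at day 2, Wnt3 at day 4, Zfp207 at day 6 and Agtr1a and Dnmt3b between days 0 and 4 in Fl/Fl. The 75th percentile ended those of Tfap2c at day 2, Gnai3 (-0.24) and Agtr1a at day 4, Nodal between days 0 and 6 in null, Agtr1a between days 0 and 4 in Fl/Fl and Rspo3 for the difference of changes.

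Same-numbered arrays deviated from their group means with correlations between -0.199 and 0.259. With 2 Fl/Fl arrays per day the deviations of these mirror each other, so the check cannot decide whether replicate numbers pair the arrays. With a replicate block 61 genes were called at day 2, and 1, 5 and 3 of the pathway at days 0, 4 and 8, while Apln at day 4 was -3.51 (limma adjusted p = 0.000337).

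Leaving out single arrays gave Apela differences of 0.43 to 0.80, -0.32 to -0.20, 1.25 to 1.47, 4.54 to 5.74 and 0.20 to 0.77 at days 0 to 8. Aplnr gave 0 at days 0 and 2, -5.66 to -5.29 at day 4, -1.55 to -0.56 at day 6 and -2.60 to 3.15 at day 8, where the lowest value was without null replicate 1 and the highest without null replicate 2. Genes called ranged over 103 to 669, 66 to 244, 895 to 2459, 546 to 2139 and 280 to 2504 at days 0 to 8, 4533 to 5319 between days 0 and 6 in null, 1966 to 2529 between days 0 and 4 in Fl/Fl and 179 to 414 for the difference of changes. Pathway calls ranged over 0 to 1, 0 to 1, 1 to 3, 0 to 3 and 0 to 4. Aplnr at days 0 to 4 in null and days 0 and 2 in Fl/Fl is limited by the floor of the array.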
